A study of Mus musculus with 6 samples.

Results

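The respiratory chain genes of the mouse medial ganglionic eminence were followed in wild type and Sp9 null embryos, with the subunits encoded in the nucleus set against those encoded by mitochondrial DNA. Members were chosen by gene name as the subunits of complexes I to V (Nduf, Sdh, Uqcr, Cox4 to Cox8 and Atp5 names, and the mt-Nd, mt-Co, mt-Cytb and mt-Atp names), leaving out named pseudogenes. The rule found 96 of the 34745 genes in the deposited table. Of these, 83 are nuclear, with 36 in complex I, 4 in complex II, 8 in complex III, 18 in complex IV and 17 in complex V. The other 13 are mitochondrially encoded, with 7 in complex I, 1 in complex III, 3 in complex IV and 2 in complex V. The names Ndufa4, Atp5s and Atp5sl were kept in the complexes that their names give, whether or not their proteins belong there.

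The respiratory chain is the set of inner membrane complexes that carries electrons from NADH (complex I) and succinate (complex II) through complex III to oxygen at complex IV, and pumps protons that drive ATP synthesis by complex V. Most subunits are nuclear genes translated in the cytosol and imported. A small core of complexes I, III, IV and V is encoded by mitochondrial DNA. It is transcribed inside the organelle as long precursor RNAs that are cut into shorter messages. Complexes with subunits from both genomes need both sets of transcripts, and young neurons are known to shift towards oxidative metabolism as they leave the progenitor pool.

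RNA-seq was done on the medial ganglionic eminence (MGE), a ventral forebrain region that produces cortical interneurons, at embryonic day 12.5. There were 3 libraries from wild type littermates and 3 from Sp9 null mutants, all on a mixed CD1, 129S6 and C57BL/6J background. Sp9 is a zinc finger transcription factor, and the labels call the mutants null and name no driver that would limit its loss to a cell type. Whether the libraries came from different embryos or litters is not in the labels. The p-values therefore reflect spread among these 6 samples alone, and that spread may be technical.

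Libraries held 6826447 (null replicate 1) to 10979280 counts. Counts of Sp9 were 1939, 2700 and 1870 in wild type against 89, 116 and 118 in null, as labelled. All 8 MGE markers were present, and their summed level was 3304 to 3458 counts per 1000000 (CPM) in wild type and 4028 to 4112 CPM in null libraries. The 8 did not move together. In the edgeR fit blocked on replicate number, described below, 3 of them rose (Dlx1, Dlx2 and Gad2) and 2 fell. The 2 were Lhx6, from 521 to 375 CPM (adjusted p = 6e-06), and Nkx6-2, from 13.96 to 8.61 CPM (adjusted p = 0.00677). In that fit 2.22% of all genes tested were called higher and 1.78% lower. Without the block 1 of the 8 was called higher (Dlx1, edgeR adjusted p = 0.034) and 0 lower. Microglial markers (8 genes) summed to 30.7 to 35.3 CPM in wild type and 7.95 to 13.5 CPM in null libraries. All 8 stomach and pancreas markers were counted in wild type libraries, where they summed to 86.4 to 112 CPM, and they were at 0 in all 3 null libraries. Where these counts came from was not tested, and they need not come from MGE cells. Erythroid markers (10 genes) lay at 841 to 1274 CPM in wild type and 848 to 1313 CPM in null, so those sums overlapped. In the blocked fit 2 of the 10 were called higher in null and 0 lower. They were Hba-x (edgeR adjusted p = 2e-05) and Hbb-bh1 (edgeR adjusted p = 0.0426). Replicate 2 of both genotypes stood apart by low pallial (1.19 and 1.46 CPM) and hypothalamic (1.10 and 0.546 CPM) marker sums, where the other libraries had 16.5 to 45.5 and 3.57 to 6.47 CPM. Only 1 of 6 pallial and 1 of 4 hypothalamic markers passed the expression filter. Tbr1 had 141, 7 and 200 counts in wild type and 159, 1 and 395 in null, and Otp 19, 0 and 25 against 21, 1 and 34. Tbr1 was called higher in null in the blocked fit (edgeR adjusted p = 0.0238). Microglial, MGE and stomach marker sums thus moved with genotype beside every result given here. So did single erythroid and pallial markers in the blocked fit. The part of all these markers in those results was not tested. In tissue RNA of this kind, fewer cells of a type and less RNA per cell cannot be told apart.

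The balance between the 2 genomes differed between the genotypes. For replicates 1, 2 and 3 in turn, nuclear members summed to 5237, 5649 and 5169 CPM in wild type and to 4935, 4872 and 4620 CPM in null, and this order of replicates is kept below. Mitochondrially encoded members summed to 22027, 22207 and 22812 CPM in wild type and to 23182, 34269 and 34093 CPM in null. Neither sum overlapped between the genotypes, with the nuclear sum lower and the mitochondrial sum higher in every null library, and null replicate 1 lay nearest to wild type in both.

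Dividing the mitochondrial by the nuclear counts of the same library, which removes any scaling of library totals, gave 4.21, 3.93 and 4.41 in wild type and 4.70, 7.03 and 7.38 in null. The mean ratio was 4.18 ± 0.24 (SD, n = 3) in wild type and 6.37 ± 1.46 (SD, n = 3) in null, 1.52-fold higher. Every null library lay above every wild type library, and the large spread in the null group came from replicate 1. Within replicate numbers the null ratio was 1.12, 1.79 and 1.67 times the wild type ratio for numbers 1, 2 and 3. The members were chosen with earlier results known, so these sums were given no test.

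**Figure D1:**
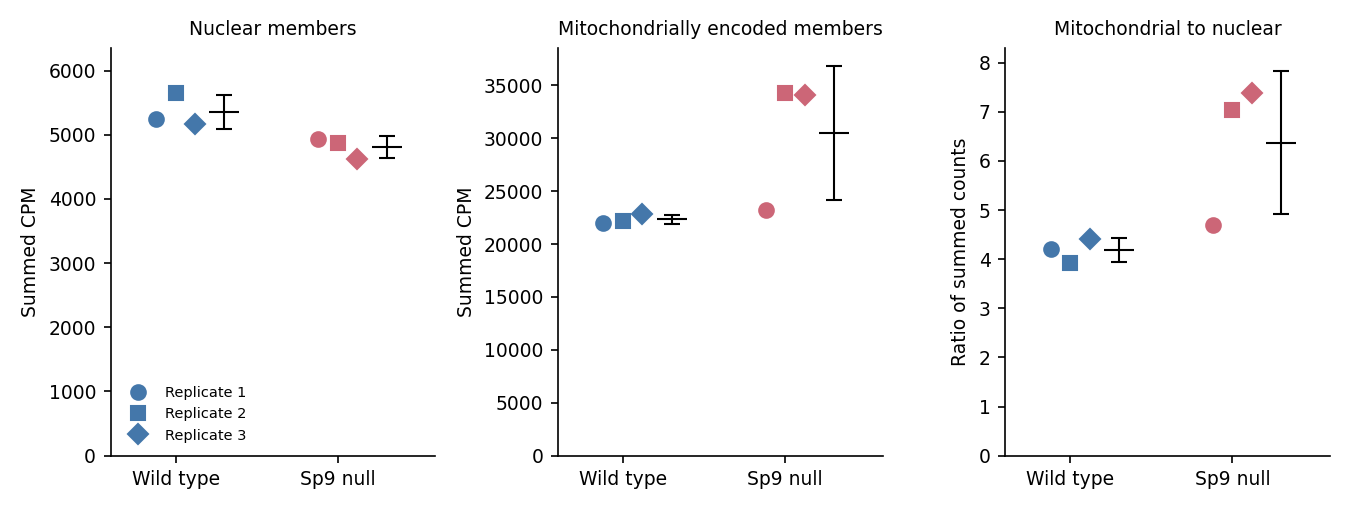
Summed CPM of the nuclear members (left) and of the mitochondrially encoded members (middle), and the ratio of their summed counts (right), for each library, with the mean and SD of each genotype (n = 3) as horizontal bars beside the points. All 3 null libraries lie below wild type on the left and above it in the middle and on the right, and null replicate 1, with a ratio of 4.70, lies nearest to wild type.

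The same direction was seen in each complex that takes subunits from both genomes. For complex I the mitochondrial to nuclear ratio was 6.93, 6.74 and 7.66 in wild type and 8.03, 13.8 and 13.8 in null, a 1.67-fold higher mean, and this was the widest difference among the 4 complexes. For complex IV it was 14.7, 13.6 and 15.1 in wild type and 17.3, 23.5 and 24.7 in null, 1.51-fold higher. Complex V had a mean 1.40-fold higher and complex III one 1.35-fold higher. Wild type and null libraries did not overlap in any of these 4 ratios. Complex II, which has no mitochondrially encoded subunit, summed to 374, 410 and 364 CPM in wild type and to 363, 344 and 309 CPM in null.

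Among single genes, the edgeR quasi-likelihood test called 0 of the 77 nuclear and 0 of the 13 mitochondrially encoded members tested at a Benjamini-Hochberg adjusted p under 0.05, where 0.147% of all 14929 genes tested were called (0.0469% higher and 0.1% lower in null). At an unadjusted p under 0.05 it had 17 nuclear members, 9 mitochondrially encoded members and 882 genes in all. DESeq2 called 0 nuclear and 2 mitochondrially encoded members, mt-Nd5 (adjusted p = 0.0475) and mt-Nd6 (adjusted p = 0.0219), where 0.39% of all genes with an adjusted p were called and 0.162% were called higher. The replicate numbers 1 to 3 were taken to pair the libraries, because same-numbered libraries deviated together. The labels do not say what the numbers mark, and numbers 1 and 3 could not be told apart. Wild type 1 correlated by 0.336 with null 1 and by 0.354 with null 3. All blocked calls rest on this pairing, which was drawn from these same data. With the replicate number as a block, edgeR called 9 nuclear members, all lower in null, where 1.78% of all genes tested were called lower. It called 2 mitochondrially encoded members, both higher, where 2.22% of all genes tested were called higher. In either direction 4% of all genes tested were called. All 11 of these calls were lost when the libraries numbered 2 were left out, where 0.836% of all genes tested were called. They were also lost when DESeq2 was run with the block, where 0.849% were called.

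The mitochondrially encoded genes differed in size of change. Their log2 fold changes (null over wild type, unblocked) ran from -0.16 to 0.80 with a median of 0.38, and 11 of 13 were above 0, against a median of -0.005 and 51.1% of values below 0 among all genes tested. Null libraries lay wholly above wild type for 6 of the 13 and wholly below for 1, where 4.95% of all genes tested lay wholly above and 8.06% wholly below. Leaving out null replicate 1, edgeR without the block called 4 of them, mt-Nd2, mt-Nd4, mt-Nd5 and mt-Nd6, all higher, where 0.0524% of all genes tested were called higher. That library lay nearest to wild type in the mitochondrial sum. Leaving it out therefore widens the difference, and these calls are no separate support.

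Within complex I, mt-Nd6 (MT:13552-14070) had 694.5, 760 and 757 CPM in wild type and 839, 1529 and 1422 CPM in null. It encodes a membrane subunit and lies on the opposite strand from the other 12 members. Its log2 fold change was 0.80 ± 0.22 (SE), the highest of the 13, with an edgeR adjusted p of 0.628 without and 0.322 with the block. Proton-pumping subunit gene mt-Nd5 (MT:11742-13565) had 2258, 2244 and 2389 CPM in wild type and 2540, 4298 and 4123 CPM in null. Its log2 fold change was 0.70 ± 0.20 (SE). Null replicates 2 and 3 were far above wild type for both genes, and null replicate 1 was just above the highest wild type library. The membrane subunits mt-Nd4 and mt-Nd2 had the same pattern, with log2 fold changes of 0.63 ± 0.20 and 0.58 ± 0.19 (SE), and mt-Nd1 had 0.45 ± 0.17 (SE), with null replicate 1 inside the wild type range.

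The short complex I genes stood apart from these. mt-Nd3 (MT:9459-9806) had 61.1, 69.2 and 72.0 CPM in wild type and 60.4, 60.6 and 59.8 CPM in null, so that all null libraries lay below wild type. Its log2 fold change was -0.14 ± 0.09 (SE), with an edgeR adjusted p of 0.897 without and 0.353 with the block. mt-Nd4l had 52.4, 51.9 and 44.5 CPM in wild type and 38.2, 60.4 and 62.7 CPM in null, with null replicate 1 below and the others above.

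In complex III, mt-Cytb, the gene of the catalytic cytochrome b, had 3166, 3106 and 3162 CPM in wild type and 3086, 4325 and 4272 CPM in null, with null replicate 1 below wild type. In complex IV, mt-Co1 carries the site where oxygen is reduced and was the most counted member, at 6947, 6877 and 7108 CPM in wild type and 7337, 10459 and 10465 CPM in null. Its log2 fold change was 0.46 ± 0.15 (SE). mt-Co2, which takes electrons from cytochrome c, had 1248, 1319 and 1285 CPM in wild type and 1280, 1845 and 1778 CPM in null. It rose in the blocked fit, by 0.35 ± 0.09 (SE, log2, edgeR adjusted p = 0.0368), with null replicate 1 inside the wild type range. mt-Co3, a structural core subunit, had 1388, 1363 and 1469 CPM in wild type and 1403, 1558 and 1711 CPM in null. It differed by 0.17 ± 0.10 (SE, log2, unblocked), with null replicate 1 again inside the wild type range.

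In complex V, mt-Atp6 forms part of the proton channel and had 859, 841 and 784 CPM in wild type and 904, 1186 and 1084 CPM in null. It rose in the blocked fit, by 0.37 ± 0.08 (SE, log2, edgeR adjusted p = 0.0115), and no null library lay within the wild type range. mt-Atp8, at 11.5 to 14.9 CPM in wild type and 6.88, 10.7 and 16.6 CPM in null, overlapped between genotypes.

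**Figure D2:**
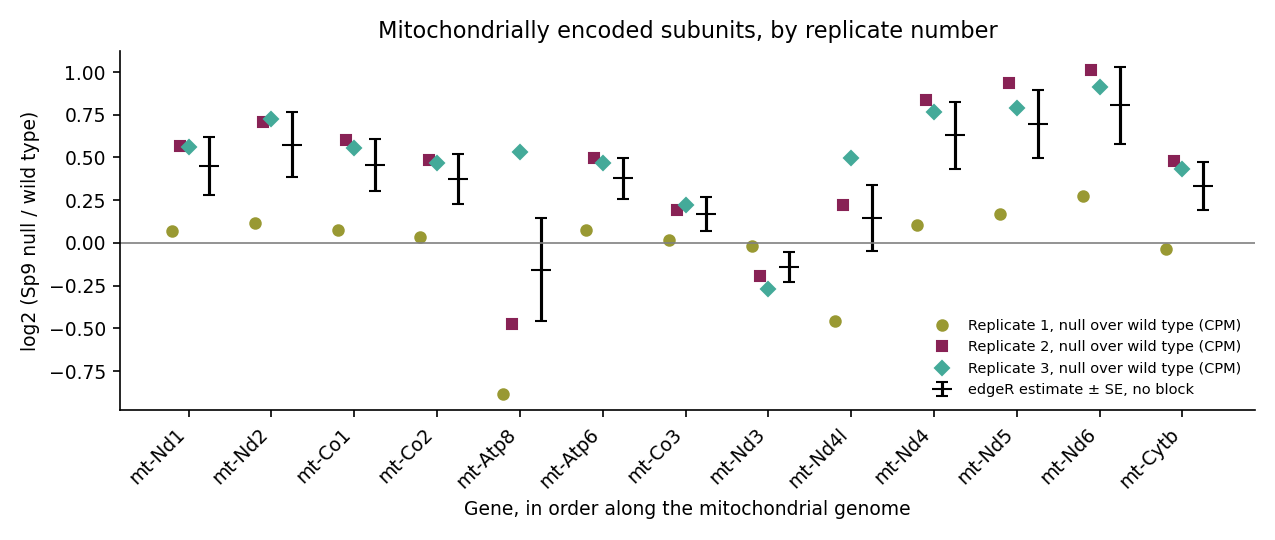
The log2 ratio of null to wild type CPM for each mitochondrially encoded gene, in genome order, for replicate numbers 1 to 3 (coloured points), beside the edgeR estimate without the block and its SE (black bars). Numbers 2 and 3 lie near each other for most genes and number 1 near 0, and the estimates run from -0.16 for mt-Atp8 to 0.80 for mt-Nd6.

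Since each gene's share of the summed mitochondrial counts does not depend on how many mitochondrial reads a library holds, shares show the unequal change. mt-Nd6 took 3.15, 3.42 and 3.32% of these counts in wild type and 3.62, 4.46 and 4.17% in null. mt-Nd5 took 10.2, 10.1 and 10.5% in wild type and 10.96, 12.5 and 12.1% in null. mt-Co3 took 6.30, 6.14 and 6.44% in wild type and 6.05, 4.55 and 5.02% in null. Groups did not overlap in any of these shares, including in null replicate 1. The share of mt-Nd3 was also lower in every null library (0.278 to 0.316% against 0.175 to 0.260%), as was that of mt-Cytb (13.9 to 14.4% against 12.5 to 13.3%). Shares of mt-Nd1, mt-Nd2, mt-Co1 and mt-Atp6 overlapped between genotypes.

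Some mitochondrial genes share bases, which limits how reads can be assigned. The stretches below are 2 of the 4 exon overlaps, read from GENCODE M21 transcripts. They are shown because bases within them belong to 2 genes and so do not by themselves place a read. For genes on opposite strands this holds only where strand was not counted. The first holds the start of mt-Atp6 and the end of mt-Atp8 at MT:7927-7969 on 1 strand, and the second the ends of mt-Nd5 and mt-Nd6 at MT:13552-13565, on opposite strands and written in the direction of mt-Nd5.
mt-Atp8 and mt-Atp6: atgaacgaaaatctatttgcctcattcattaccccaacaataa
mt-Nd5 and mt-Nd6: ttaatctcgagtaa
The overlap of mt-Atp8 and mt-Atp6 is 43 bases of the 204 in mt-Atp8, and that of mt-Nd5 and mt-Nd6 is 14 bases. The sources used here do not give whether reads were counted by strand, so reads of mt-Nd6 and of the opposite strand across the same bases cannot be told apart.

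A larger sharing of reads was with the nuclear genome. A stretch of chromosome 1 (chr1:24611535-24616197, GRCm38) carries 7 annotated copies of mitochondrial genes that are 99.7 to 100% identical to their sources over the matched length. Gm10925, the copy of mt-Atp6, had 95096 counts over the 6 libraries, more than the 54566 of mt-Atp6 itself. The copies of mt-Co2, mt-Co3, mt-Nd3 and mt-Nd4l had 102, 104, 104 and 110% of the counts of their sources. Those of mt-Nd4 and mt-Co1 had 39.5 and 6.50%. Values of these 7 members are therefore uncertain in level.

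Unblocked log2 fold changes were 0.50 ± 0.15 (SE) for Gm10925, beside 0.38 for mt-Atp6, and 0.84 for Gm28439, the copy of mt-Nd4, beside 0.63 for mt-Nd4. With the counts of each copy added to its source, the mitochondrial to nuclear ratio was 5.22, 4.88 and 5.43 in wild type and 5.78, 8.60 and 9.03 in null, 1.51-fold higher. Over the 6 members without such a copy (mt-Nd1, mt-Nd2, mt-Atp8, mt-Nd5, mt-Nd6 and mt-Cytb), the mean ratio was 1.57-fold higher in null. The blocked edgeR calls of mt-Atp6 and mt-Co2 were lost with the copies added (adjusted p = 0.122 and 0.0805), where 2.2% of all genes tested were called higher. Both ways of handling the copies were chosen after the data were seen.

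**Figure D3:**
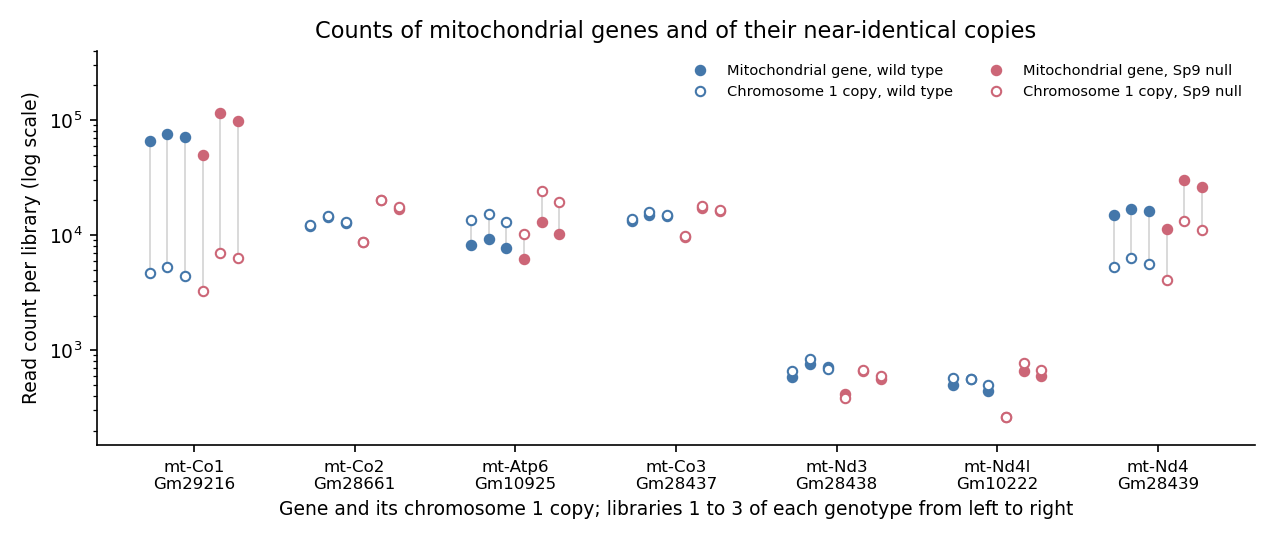
Read counts per library, on a log axis, of the 7 mitochondrial genes with a near-identical copy on chromosome 1 (filled points) and of that copy (open points), joined by a grey line, for wild type (blue) and Sp9 null (red) libraries. For mt-Co2, mt-Co3, mt-Nd3 and mt-Nd4l the 2 counts are nearly the same in every library, and for mt-Atp6 the copy has the higher count.

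The nuclear subunits were lower in null libraries by small amounts spread over many genes. Of the 77 tested, 70 had a log2 fold change below 0 (90.9%), with a median of -0.17 and a range from -0.79 to 0.14, beside 51.1% below 0 and a median of -0.005 over all genes tested. Null libraries lay wholly below wild type for 26 of the 77 (33.8%) and wholly above for 1 (Ndufs5). Of all genes tested, 8.06% lay wholly below and 4.95% wholly above. Wholly below also lay 29.4% of citric acid cycle genes, 25% of assembly factors, 15.8% of mitochondrial ribosome genes and 14.3% of other mitochondrial proteins, lists described below. The share was 0% for nuclear regulators, for mitochondrial DNA copying, transcription and RNA care, and for genes that the name rule does not take. The median stayed between -0.21 and -0.11 over the other fits and left-out libraries. The 6 untested members (Cox4i2, Cox6a2, Cox7a1, Cox7b2, Cox8b and Cox8c) had at most 6 counts in any library.

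By complex, 32 of 36 tested nuclear genes of complex I had values below 0, as had 4 of 4 in complex II, 7 of 8 in complex III, 12 of 12 in complex IV and 15 of 17 in complex V. Median log2 fold changes were -0.18, -0.20, -0.18, -0.19 and -0.11 in that order. The 7 nuclear genes of the complex I core, which hold the iron-sulphur clusters and the flavin that pass electrons, had a median of -0.08 and none was called. Summed levels were lower in every null library for each of the 5 complexes, by the ratios 0.895, 0.885, 0.917, 0.863 and 0.908 of null to wild type means.

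**Figure D4:**
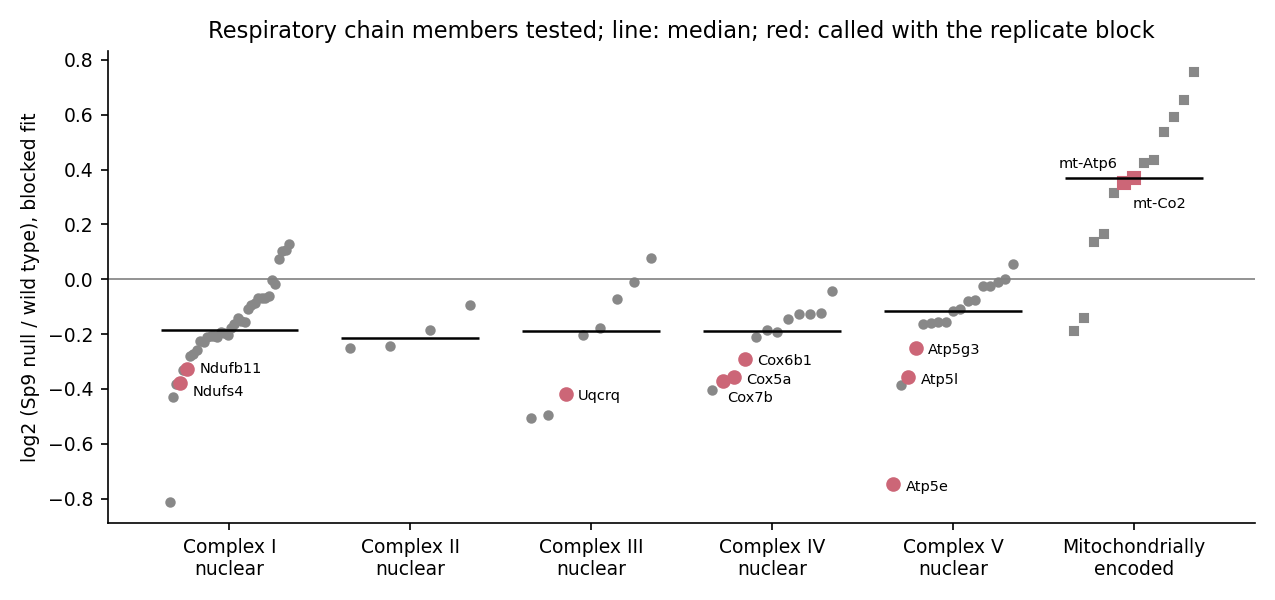
Log2 fold changes (null over wild type) from the edgeR fit with the replicate block for the 77 nuclear members tested, by complex (circles), and the 13 mitochondrially encoded members (squares), with the median of each set as a line and the 11 genes called in that fit in red. Below 0 lie 70 of the 77 nuclear genes, and above it 11 of the 13 mitochondrially encoded genes.

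In complex I, Ndufb9, an accessory subunit of the membrane arm and the nuclear complex I gene with the highest FPKM (the count over gene length and library total), was at 53.1 ± 3.80 FPKM in wild type and 46.3 ± 1.94 FPKM in null (SD, n = 3) and was not called in either fit. Ndufs4, an accessory subunit of the matrix arm (chr13:114287795-114388094), had 35.7, 34.3 and 30.7 CPM in wild type and 25.6, 25.3 and 25.03 CPM in null. It fell in the blocked fit by 0.38 ± 0.10 (SE, log2, edgeR adjusted p = 0.0279), and its groups did not overlap. Ndufb11, a membrane arm subunit (chrX:20615326-20617619), had 49.1, 52.0 and 41.8 CPM in wild type and 41.3, 38.4 and 32.7 CPM in null, with null replicate 1 just below wild type replicate 3. It fell in the blocked fit by 0.33 ± 0.09 (SE, log2, edgeR adjusted p = 0.0252), and it shares exon bases on the opposite strand with Rbm10, which had 369% as many counts. Ndufa1, the gene with the largest change in the complex, was scarce at 4.93, 5.86 and 6.35 CPM in wild type and 4.54, 2.64 and 2.76 CPM in null. Its difference of -0.79 ± 0.26 (SE, log2, unblocked) was not called (edgeR adjusted p = 0.715, and 0.0658 with the block).

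In complex II, Sdhb, the iron-sulphur subunit of succinate dehydrogenase, had 83.7, 91.8 and 80.1 CPM in wild type and 76.2, 65.6 and 70.7 CPM in null, all below wild type, with a blocked edgeR adjusted p of 0.0501. Sdhd, a membrane anchor, had 51.3, 51.4 and 46.5 CPM in wild type and 51.3, 43.5 and 31.4 CPM in null, so its groups overlapped. In complex III, Uqcrq, a small ubiquinone-binding subunit (chr11:53427922-53430831), had 28.0, 28.8 and 28.1 CPM in wild type and 19.5, 20.7 and 22.4 CPM in null. The wild type libraries lay within 1 CPM of each other and all null libraries far below. It fell in the blocked fit by 0.42 ± 0.11 (SE, log2, edgeR adjusted p = 0.0252). Uqcrfs1, the Rieske iron-sulphur protein, overlapped between genotypes, and Uqcr10, at 13.2 ± 2.23 CPM in wild type against 9.18 ± 1.77 CPM in null (SD, n = 3), was not called.

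Complex IV held the nuclear call with the lowest adjusted p. Cox5a, a subunit on the matrix side of cytochrome c oxidase (chr9:57521232-57532424), had 73.4, 80.2 and 75.2 CPM in wild type and 59.0, 57.2 and 59.8 CPM in null. No null library came near the wild type range. It fell in the blocked fit by 0.36 ± 0.08 (SE, log2, edgeR adjusted p = 0.00265), against an adjusted p of 0.335 without the block. The overlapping gene Gm26631 on the opposite strand had 55.8% as many counts as Cox5a and an unblocked log2 fold change of -0.15.

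Cox7b, a small membrane subunit (chrX:106015700-106022450), had 34.2, 44.3 and 40.4 CPM in wild type and 32.5, 30.6 and 27.8 CPM in null, and fell by 0.37 ± 0.10 (SE, log2, blocked edgeR adjusted p = 0.0258). Cox6b1, which faces the intermembrane space (chr7:30616974-30626151), had 54.5, 62.7 and 55.6 CPM in wild type and 48.6, 45.2 and 45.8 CPM in null, and fell by 0.29 ± 0.08 (SE, log2, blocked edgeR adjusted p = 0.0396). For both genes all null libraries lay below wild type, with null replicate 1 the nearest to it.

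In complex V, Atp5e, the epsilon subunit of the catalytic head (chr2:174461072-174464105), had 12.5, 12.4 and 8.07 CPM in wild type and 6.74, 6.01 and 6.36 CPM in null. Wild type replicate 3 lay between the other wild type libraries and the null group, and the groups did not overlap. It fell in the blocked fit by 0.75 ± 0.18 (SE, log2, edgeR adjusted p = 0.013), on 46 to 135 counts per library. Atp5l, the g subunit in the membrane part (chr9:44913250-44920742), had 33.7, 43.2 and 31.1 CPM in wild type and 29.4, 26.8 and 26.7 CPM in null and fell by 0.36 ± 0.11 (SE, log2, blocked edgeR adjusted p = 0.0458). Parts of its transcript are 97.04 to 97.6% identical to stretches in Usp9x, Ccnd3, Gm15645 and Tulp3, so its counts are uncertain.

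Atp5g3, which encodes the rotor ring subunit c (chr2:73908447-73911326), had 80.5, 81.9 and 76.1 CPM in wild type and 70.8, 65.4 and 61.9 CPM in null and fell by 0.25 ± 0.07 (SE, log2, blocked edgeR adjusted p = 0.0426). No null library reached the wild type range. It lies 0.62 Mb from Sp9 on chromosome 2, and the part of that closeness in the result was not tested. The nuclear member with the highest FPKM, Atp5a1, the catalytic head's alpha subunit, was at 128 ± 4.05 FPKM in wild type and 113 ± 6.75 FPKM in null (SD, n = 3). All its null libraries lay below wild type, and it was not called (blocked edgeR adjusted p = 0.149).

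Leaving out pairs of libraries changed which of these 9 nuclear genes were called in the blocked edgeR fit. Without the libraries numbered 3, Cox5a (adjusted p = 0.0385) and Atp5e (adjusted p = 0.0185) were called and the others were not, where 0.764% of all genes tested were called lower. Without those numbered 1, 17 nuclear members were called, all lower, with Uqcrq and Ndufs4 no longer among them, where 3.47% of all genes tested were called lower. There were also 11 mitochondrially encoded members called, all higher, where 4.41% of all genes tested were called higher. Since null replicate 1 lay nearest to wild type in both sums, these larger counts are no separate support.

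The upstream sequences of Cox5a, Atp5e and Atp5l are given because Cox5a and Atp5e kept their blocked call without pair 1 and without pair 3, and Atp5l held the match to the NRF1 letters among the called genes. Each is the 250 bases before the start annotated in RefSeq on GRCm38.p6, written 5′ to 3′ on the gene's strand, with matches to the motifs named below in capitals. They lie at chr9:57520982-57521231 (plus strand), chr2:174464102-174464351 (minus strand) and chr9:44920743-44920992 (minus strand).
Cox5a: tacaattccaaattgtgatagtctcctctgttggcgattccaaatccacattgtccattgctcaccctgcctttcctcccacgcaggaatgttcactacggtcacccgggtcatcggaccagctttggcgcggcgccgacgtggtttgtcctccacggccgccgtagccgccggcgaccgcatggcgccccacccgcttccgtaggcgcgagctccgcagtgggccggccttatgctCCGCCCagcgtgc
Atp5e: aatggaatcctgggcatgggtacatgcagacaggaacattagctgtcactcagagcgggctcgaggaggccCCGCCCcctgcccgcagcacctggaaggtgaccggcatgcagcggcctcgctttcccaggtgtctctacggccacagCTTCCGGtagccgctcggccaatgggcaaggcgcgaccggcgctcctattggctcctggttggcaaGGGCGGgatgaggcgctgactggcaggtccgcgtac
Atp5l: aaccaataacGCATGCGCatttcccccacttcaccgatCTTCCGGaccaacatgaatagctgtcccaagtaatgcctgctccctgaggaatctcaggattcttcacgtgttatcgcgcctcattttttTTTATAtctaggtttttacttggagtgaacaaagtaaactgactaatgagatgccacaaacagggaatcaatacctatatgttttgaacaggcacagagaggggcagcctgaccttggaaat
The capitals mark a GC box 13 bases before the start in Cox5a, 2 GC boxes and a GABP match in Atp5e, and an NRF1, a GABP and a TATAAA match in Atp5l.

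NRF1, GABP and YY1 are known regulators of nuclear respiratory genes, and the GC box is the element bound by Sp factors. Windows from 250 bases before to 50 after the start were searched on both strands for fixed letters in the 66 of 83 nuclear members with a RefSeq window. The NRF1 letters GCATGCGC were in 15.2% of member windows and 2.71% of all 32851 windows. The GABP letters CCGGAAG were in 22.7 and 8.86%, and the YY1 letters AAGATGGC in 12.1 and 2.75%. The GC box GGGCGG was in 39.4 and 35.7%, and TATAAA in 10.6 and 13.6%. Among the 8 called nuclear genes with a window, 2 held a GC box, 3 a GABP match, 1 an NRF1 match and 1 a YY1 match. These matches describe letters and not bound sites.

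Several complex IV subunits have a widely expressed form and a form restricted to muscle, lung or testis. The restricted forms were at or near 0 in both genotypes, with 0 counts for Cox6a2 and Cox8b in all libraries, 1 count in all for Cox8c, at most 5 in a library for Cox4i2 and at most 6 for Cox7a1. Levels under 3 counts per library, which is 0.273 to 0.439 CPM, were not detectable at this depth, by counting error alone. Cox6b2, a testis form, had 16, 28 and 23 counts in wild type and 8, 23 and 15 in null. The wide forms were at 38.9 FPKM (Cox4i1), 43.3 FPKM (Cox6a1), 114 FPKM (Cox6b1), 51.3 FPKM (Cox7a2) and 110 FPKM (Cox8a) in the wild type mean. In CPM their wild type means were 104, 51.6, 57.6, 38.6 and 60.0 in the same order, so the ranking differed between the measures. Of these 5, Cox6b1 was called lower in the blocked fit. Markers of muscle and heart were at 0 in all libraries for 3 of 7 genes and summed to 1.47 to 4.23 CPM in wild type and 3.19 to 4.67 CPM in null.

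Transcript length went along with the changes, in the members and in all genes. Among tested genes that are not members, those with a principal transcript up to 1000 bases had a median log2 fold change of -0.11 (n = 677, 69.4% below 0), and those over 5000 bases had 0.04 (n = 2508, 37.5% below 0). Nuclear members up to 1000 bases had a median of -0.19 (n = 47, 93.6% below 0). Between 1500 and 3000 bases the members had -0.07 (n = 17) and the other genes -0.02 (n = 4390). The members' medians were thus lower than those of other genes in both length classes, a difference given no test. Across genes, which are not independent replicates and share libraries and depth, Spearman's rho of length with log2 fold change was 0.38 for the nuclear members (n = 77) and 0.21 for the other genes (n = 12731).

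Changes of the mitochondrially encoded genes also went along with length. Spearman's rho was 0.64 over the 13 genes and 0.85 over 12 when mt-Nd6 was left out. Since mt-Nd6 is short and had the highest change, leaving it out raises rho, and the 0.85 is no separate support. With the chromosome 1 copies added, rho was 0.52 over the 13 genes and 0.71 over the 12. The 3 shortest, mt-Atp8 at 204 bases, mt-Nd4l at 297 and mt-Nd3 at 348, had the 3 lowest log2 fold changes, -0.16, 0.15 and -0.14. Those of mt-Atp8 and mt-Nd4l changed sign under some alternative fits. The longest, mt-Nd5 at 1824 bases, had 0.70, while mt-Nd6, at 519 bases, had 0.80. The part of transcript length in the changes of either set was not tested.

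**Figure D5:**
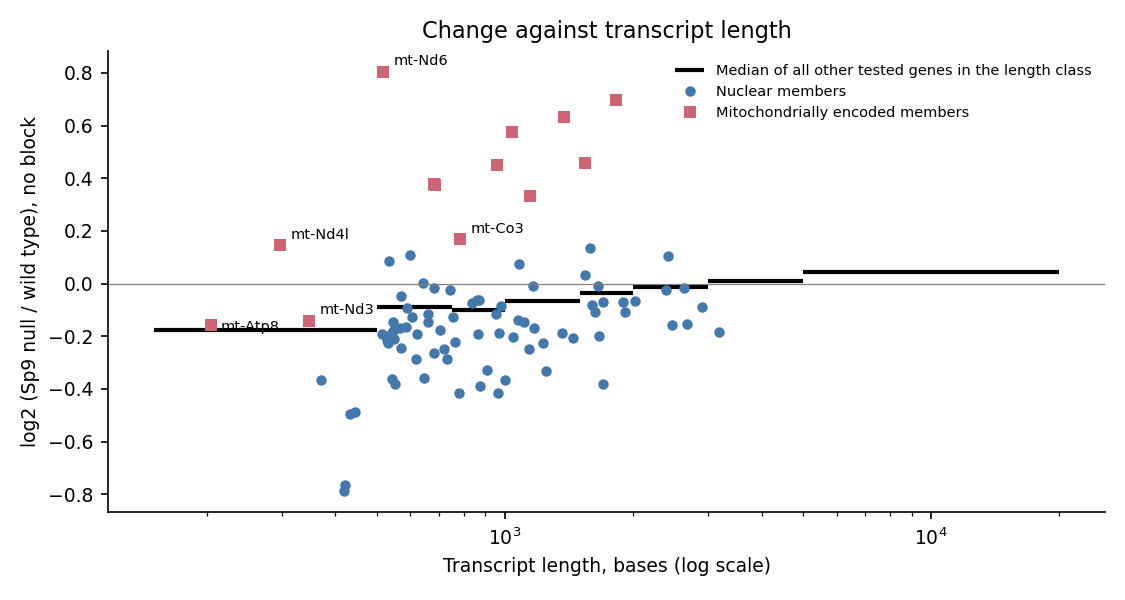
Log2 fold change (null over wild type, edgeR without the block) against transcript length on a log axis for nuclear members (blue circles) and mitochondrially encoded members (red squares), with black lines at the median of all other tested genes in each length class. The black lines run from -0.18 below 500 bases to 0.04 above 5000 bases, the blue circles lie mostly below 0, and the red squares rise with length apart from mt-Nd6.

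Genes that build or regulate the chain were also read from lists. Of 44 tested assembly factors, 1 rose and 1 fell in the blocked edgeR fit, shares near the 2.22% higher and 1.78% lower among all genes tested, and 0 were called without the block. Cox20, a helper in the maturation of mt-Co2 protein, had 102 ± 7.02 CPM in wild type against 131 ± 16.2 CPM in null (SD, n = 3) and rose by 0.38 ± 0.07 (SE, log2, blocked, adjusted p = 0.000183). Ndufaf5, a complex I assembly factor, had 14.6 ± 3.02 CPM in wild type against 9.73 ± 1.56 CPM in null (SD, n = 3) and fell by 0.56 ± 0.15 (SE, log2, blocked edgeR adjusted p = 0.0264). Among 10 tested nuclear regulators of respiratory genes, 2 rose in the blocked edgeR fit, where 2.22% of all genes tested were called higher, and 0 fell. They were Nfe2l2, a regulator of the oxidative stress response (0.46 ± 0.12, SE, log2, adjusted p = 0.0153), and Esrrg, an estrogen-related receptor (0.61 ± 0.16, SE, log2, adjusted p = 0.0349). Yy1, the regulator with the highest FPKM, had a log2 fold change of 0.0009 ± 0.0926 (SE, unblocked).

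Of 27 tested genes for mitochondrial DNA copying, transcription and RNA care, 0 were called in either fit (0 without and 3 with the block at an unadjusted p under 0.05, against 882 and 2573 of all 14929 genes), and their median log2 fold change was 0.002 (-0.002 with the block). Slirp, an RNA-stabilising partner and the one with the highest FPKM, was at 60.7 ± 6.23 CPM in wild type against 62.1 ± 8.59 CPM in null (SD, n = 3). The name rule does not take 7 other genes tied to the chain, among them the complex III subunit Cyc1, cytochrome c (Cycs), the complex V inhibitor Atpif1 and the cristae protein Minos1. Of these 7, 0 were called, with 0 unblocked and 1 blocked at an unadjusted p under 0.05. Their median was 0.0001 (-0.00005 with the block). It covers subunits and other proteins together, with 3 below 0 and 4 above without the block. Cyc1 and Ndufab1 were among those below 0, at -0.23 and -0.14 (log2, unblocked). Of the 7, Usmg5, a small subunit of complex V, had the highest FPKM. It was at 23.5 ± 1.70 CPM in wild type against 23.8 ± 4.78 CPM in null (SD, n = 3), below Cycs at 92.7 CPM in wild type.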

How the data were processed

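Total RNA of 6 MGE tissue samples was sequenced. The authors deposited a whole-number read count per gene and library and, per the file headers, an FPKM value for the same genes. The deposited FPKM was the count over 1 length for each gene and over the library total in all 21180 genes checked, within a relative tolerance of 0.001. That length did not match the transcript length used here for every gene. Cox4i1 (transcript 755 bases) had 104 CPM and 38.9 FPKM in wild type, against 57.6 CPM and 114 FPKM for Cox6b1 (618 bases). Rankings by FPKM can therefore differ from those by CPM. TopHat, Cufflinks 2.1.1 and the build GRCm38.p4 are named in the submitters' processing notes. The counting program, its strand setting and its treatment of reads that match several places are not given in the sources used here. Gene coordinates are those of the deposited table.

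The main test of the counts was edgeR 4.0.16, by quasi-likelihood (R 4.3.3, TMM scaling, default expression filter, robust, two-sided) over 14929 genes, with genotype as the term. Called means a Benjamini-Hochberg adjusted p under 0.05. CPM is the count per 1000000 counts of a library. The floor was 3 counts per library and covers counting error only. DESeq2 1.42.0, RLE scaling, no expression filter, library totals without mitochondrial genes, left-out libraries and added chromosome 1 copies were alternatives. The test was run on simulated counts with a common dispersion for all genes. For the blocked fit the pairing was built into the simulation, so that run does not bear on whether the pairing holds.

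The labels number the replicates 1 to 3 in each genotype without saying what a number marks. Across genes, same-numbered libraries deviated together from their genotype means (r = 0.336, 0.729 and 0.535), and on that evidence from the data the numbers were used as pairs, with the replicate block given beside the main result. Numbers 1 and 3 were not told apart, since wild type 1 correlated by 0.354 with null 3. The r values are not independent of each other, since each deviation is from a mean over the same libraries. Replicate pairs differed by more than counting noise (chi-square per degree of freedom 3.28 to 21.9).

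The members and lists were chosen with earlier results of these data known. Genes were named by rule: all mitochondrially encoded members, nuclear members called in either edgeR fit, in each complex the nuclear gene with the highest FPKM and that with the largest change, the tissue-restricted isoforms with their partners, and from other lists the called genes and the gene with the highest FPKM. Other members named one by one were chosen after their values were seen. Transcript lengths are those of GENCODE M21 principal transcripts, found for 85.9% of the tested genes and all tested members. Upstream sequences are from RefSeq on GRCm38.p6.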

Additional observations from a re-analysis of the deposited data

How the results depend on the processing

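All 3 sums over the members kept their direction under every alternative run. The mitochondrial to nuclear ratio (null over wild type) lay between 1.40 and 1.72, the nuclear sum between 0.867 and 0.924 and the mitochondrial sum between 1.26 and 1.53. Counts of called genes depended on the model. The count over all genes was 22 without the block, 597 with the replicate block, 588 with the block and added chromosome 1 copies, 89 by DESeq2, 158 by DESeq2 with the block and 65 without the expression filter. It was 2 to 34 with a library left out and 1190, 126 and 219 with the block and pair 1, 2 or 3 left out. Nuclear members called went from 0 to 9 with the replicate block, also with the chromosome 1 copies added, and to 0 to 17 with the block and a pair left out. Mitochondrially encoded members called went from 0 to 2 with the replicate block and to 2 by DESeq2, were 0 to 4 with a library left out, and 0 to 11 with the block and a pair left out. The pairing of replicate numbers thus changed the calls of the members, and the cause was not tested.

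Of 48 tested named genes, 10 changed the sign of their log2 fold change under some alternative, none of them called in the main or the blocked edgeR fit. With 1 library left out their values ran from -0.52 to 0.10 for mt-Atp8, -0.11 to 0.018 for Cox6a1, -0.18 to 2.4e-05 for Cox7a2, -0.075 to 0.20 for Usmg5, -0.073 to 0.15 for Slirp, -0.067 to 0.065 for Yy1, -0.19 to 0.060 for Mrpl42, -0.15 to 0.12 for Hspd1 and -0.065 to 0.028 for Cs. With the replicate block and pair 1 left out they were 0.060 for mt-Atp8, 0.069 for Cox6a1 and 0.023 for Mrpl42. With pair 2 left out the value was -0.0052 for Yy1. With pair 3 left out they were -0.068 for mt-Nd4l, -0.049 for Usmg5, -0.0070 for Yy1, 0.031 for Hspd1 and 0.00030 for Cs. Yy1 was at -6.7e-05 with the block and -0.00064 without the filter.

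Null replicate 1, the shallowest library, lay nearest to wild type in both sums, and the sources used here do not say whether the libraries are separate embryos.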

Other observations

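Lists of other mitochondrial functions had median log2 fold changes from -0.08 to -0.002. Of 76 tested genes of the mitochondrial ribosome, which translates the mitochondrially encoded subunits, 54 had a log2 fold change below 0 (71.1%), with a median of -0.08. In the blocked edgeR fit 1 of them fell, Mrps12, a small-subunit protein, from 12.99 ± 3.12 CPM in wild type to 8.80 ± 1.96 CPM in null (SD, n = 3), by 0.56 ± 0.17 on the log2 scale (SE, adjusted p = 0.0492), and 0 rose. That is no larger a share than the 1.78% called lower among all genes tested. Mrpl42, the ribosomal gene with the highest FPKM, had a log2 fold change of -0.05 ± 0.14 (SE, unblocked).

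Of 17 tested citric acid cycle genes, 9 were below 0, the median was -0.002, and 0 were called by edgeR with or without the block (2 and 1 at an unadjusted p under 0.05, against 2573 and 882 of all 14929 genes). Cs, citrate synthase, was at 316 ± 10.3 CPM in wild type against 306 ± 19.7 CPM in null (SD, n = 3). Of 21 other mitochondrial proteins (import, folding, carriers and fusion), 14 were below 0 and 1 was called in the blocked fit, where 1.78% of all genes tested were called lower. Slc25a5, an ADP/ATP carrier of the inner membrane, fell in the blocked fit by 0.26 ± 0.06 (SE, log2, edgeR adjusted p = 0.00761), from 330 ± 49.7 to 271 ± 21.7 CPM (SD, n = 3). Hspd1, the matrix chaperonin, had a log2 fold change of -0.02 ± 0.15 (SE, unblocked).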
